A study of Mus musculus with 6 samples.

Results

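Cardiac muscle cells are joined end to end at the intercalated disc. Gap junctions built from connexins let current pass from cell to cell, adherens junctions tie N-cadherin through the catenins to actin, and desmosomes tie desmosomal cadherins through plakoglobin, plakophilin and desmoplakin to desmin filaments. In the newborn heart these junctions are spread along the whole cell border and gather at the cell ends as the heart matures. The genes followed here are 10 named genes of these junctions: the connexin genes Gja1 and Gja5, the adherens junction genes Cdh2, Ctnnb1, Ctnna1 and Ctnna3, plakoglobin (Jup), which is shared by both kinds of anchoring junction, and the desmosome genes Dsg2, Pkp2 and Dsp. They were found by symbol in the GENCODE M21 annotation, are 10 of the 54532 genes in the count table, and all 10 were among the 13323 genes with enough counts for the tests.

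The mice were wildtype ICR animals of 6 postnatal days (P6) that received 1e+11 viral genomes of AAV9 under the skin and were studied at P9, so all groups carry AAV9 and a cassette driven by the cardiac troponin T (cTnT) promoter, which restricts expression to cardiomyocytes (CMs). The control virus carried GFP. YAP5SA is a form of the Hippo effector YAP whose inhibitory LATS phosphorylation sites are changed to alanine, and YAP6SA has an additional serine-to-alanine change that prevents binding to TEAD factors. Poly-A RNA of CM nuclei, bound through the nuclear protein PCM-1, was sequenced in 2 libraries per group, 1 in each of 2 batches, from hearts of which the labels give 2 per virus. The labels do not say that a library is 1 heart, so the p-values measure the spread between these libraries.

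The libraries held 14552847 to 19615627 gene counts. All 10 CM markers were detected in every group, while markers of endothelial cells, fibroblasts and other cells were also present at lower summed levels. Counts on Yap1 itself ran from 1828 to 2647 over the libraries, with no rise in either YAP group (log2 fold change against GFP -0.17 with SE 0.163 for YAP5SA and -0.09 with SE 0.163 for YAP6SA), so that overexpression of the cassettes is not visible in this gene's counts. Because the RNA is that of a mixed preparation, fewer nuclei of one cell type and less RNA per nucleus cannot be told apart in any value below. Levels are given as CPM, counts scaled to a common library size by TMM, and a gene was called where the adjusted p (FDR) of the edgeR quasi-likelihood test, with batch and group in the model, was under 0.05.

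Promoter sequences were read from a RefSeq table for GRCm38.p6, which held 9 start-site windows for 6 of the 10 genes (Gja1, Gja5, Ctnnb1, Ctnna3, Jup and Dsp), each of 250 bases before and 50 bases after the start. Each window was searched on both strands for 6 motifs: GGAATG of TEAD factors, TGANTCA of AP-1, ATCAAAG of TCF/LEF, GGTGTGA of T-box factors, AGATAA of GATA factors, and the CArG box of SRF. The 250 bases upstream of the start are shown for 3 windows: Ctnnb1 as the member that was higher in YAP5SA OE CMs, and Gja1 and Ctnna3 as the members with a match. Capitals mark the matches.
Ctnnb1, chr9:120933150-120933399, plus strand: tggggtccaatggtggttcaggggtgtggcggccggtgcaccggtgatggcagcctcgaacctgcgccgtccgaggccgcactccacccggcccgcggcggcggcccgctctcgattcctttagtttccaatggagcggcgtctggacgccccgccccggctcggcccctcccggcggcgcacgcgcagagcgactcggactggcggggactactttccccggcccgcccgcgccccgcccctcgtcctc
Gja1, chr10:56377050-56377299, plus strand: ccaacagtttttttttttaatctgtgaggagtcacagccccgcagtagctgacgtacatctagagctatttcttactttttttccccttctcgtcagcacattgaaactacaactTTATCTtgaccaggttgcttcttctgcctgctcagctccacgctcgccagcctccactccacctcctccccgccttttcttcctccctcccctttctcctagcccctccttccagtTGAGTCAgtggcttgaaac
Ctnna3, second listed start, chr10:63457261-63457510, plus strand: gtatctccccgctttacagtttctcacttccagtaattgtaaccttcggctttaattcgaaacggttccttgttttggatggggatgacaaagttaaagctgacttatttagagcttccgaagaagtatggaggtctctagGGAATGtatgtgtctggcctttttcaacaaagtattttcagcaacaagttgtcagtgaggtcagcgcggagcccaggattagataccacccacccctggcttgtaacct

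The Gja1 window held the AP-1 letters (TGAGTCA) beginning 19 bases before the start and the GATA letters on the minus strand, and 1 of the 3 Ctnna3 windows held the TEAD letters beginning 109 bases before its start. The other 7 windows, both of Ctnnb1 included, held none of the 6 motifs. Over all 32851 windows of the table, 14.7% held the TEAD letters, 7.81% those of AP-1, 11.2% those of GATA, 3.98% those of T-box factors, 3.73% those of TCF/LEF and 1.63% a CArG box. The Ctnnb1 window shown was 75.3% G and C, against 47.7% in the Gja1 window and a median of 52.7% over all windows. These matches describe letters and not bound sites.

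The 10 genes covered a wide range of levels in the control hearts. Per kb of exon, Pkp2 was at 145 ± 14.1 CPM (mean ± SD, n = 2 libraries) and Ctnna1 at 119.8 ± 13.9 CPM in GFP, which placed them at percentiles 98.7 and 98.3 of the 13320 tested genes with a length. Gja1 followed at 38.2 ± 6.68, Dsp at 32.0 ± 8.53 and Dsg2 at 27.7 ± 8.96 CPM per kb, and neighbours among these 3 overlapped between libraries. Jup was at 16.6 ± 2.91, Cdh2 at 10.6 ± 1.13, Ctnnb1 at 5.63 ± 1.06, Ctnna3 at 1.78 ± 0.0760 and Gja5 at 0.652 ± 0.0422 CPM per kb, with no overlap between neighbours. Gja5 was at percentile 8.36. The order of the upper part depends on the length used, since most of the 10257 exon bases of Gja1 are not coding: per kb of coding sequence Gja1 was at 342 ± 59.8 CPM, ahead of Pkp2 at 325 ± 31.7 and Ctnna1 at 283 ± 32.8. In YAP5SA OE CMs, Jup at 15.8 ± 5.18 CPM per kb of exon stood ahead of Dsg2 at 13.6 ± 0.315, and the libraries of these genes overlapped. The plot of levels by library shows this order.

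**Figure D1:**
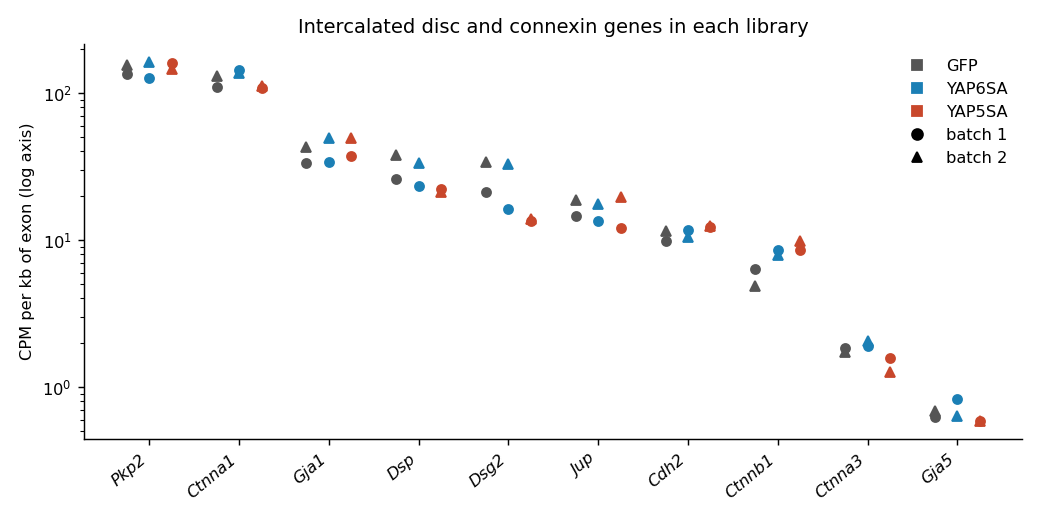
Level of each of the 10 genes in each library, as CPM per kb of exon on a log axis, ordered by the GFP mean; colours are the groups and symbols the batches. Pkp2 and Ctnna1 stand highest and Gja5 lowest, and the YAP5SA points of Dsg2 lie under those of the other groups.

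The comparison of YAP5SA with GFP asks how a Hippo-insensitive YAP changes these transcripts within 3 days. Of the 10 genes, 1 was called higher (Ctnnb1) and 1 lower (Dsg2), where 22.0% of all tested genes were called, 12.8% higher and 9.18% lower. The share of members called is near that background. The median log2 fold change of the 10 genes was -0.11, against -0.003 over all tested genes. The libraries of the groups did not overlap for 2 genes that were higher and 4 that were lower, which is 6 of 10 beside 60.9% of all tested genes (31.2% higher, 29.7% lower). At an unadjusted p under 0.05, Ctnnb1 passed as higher and Dsg2 and Dsp as lower, beside 19.4% and 17.0% of all tested genes.

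The comparison of YAP6SA with GFP asks the same of the form that does not bind TEAD. None of the 10 genes was called by edgeR, where 0.045% of all tested genes were called, and none was called by DESeq2 or limma-voom. At an unadjusted p under 0.05, 1 gene (Ctnnb1) passed, as higher, beside 3.86% of all tested genes that were higher and 2.07% that were lower. The median of the 10 genes was 0.09 on the log2 scale, against 0.002 over all tested genes. The groups did not overlap for 3 genes that were higher (Ctnnb1, Ctnna1 and Ctnna3) and for 0 that were lower, beside 34.3% of all tested genes (17.3% higher, 17.0% lower).

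Between the YAP forms, 1 of the 10 genes was called lower in YAP5SA OE CMs (Dsg2) and 0 higher by edgeR, where 14.7% of all tested genes were called, 5.68% lower and 9.0% higher. At an unadjusted p under 0.05, Dsg2 was also the member that passed in edgeR, beside 14.5% of all tested genes that were lower and 16.4% that were higher, and limma-voom and DESeq2 called 1 lower and 0 higher as well. The groups did not overlap for 6 genes, 5 of them lower in YAP5SA, beside 57.6% of all tested genes (28.6% higher, 28.9% lower). These comparisons share libraries, so their values for a gene are set side by side and not counted as separate evidence. In the joint test of both group terms, Dsg2 was called (FDR 0.0280) and the others were not, Ctnnb1 with an FDR of 0.0564 and Dsp with 0.151, beside 17.6% of all tested genes.

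**Figure D2:**
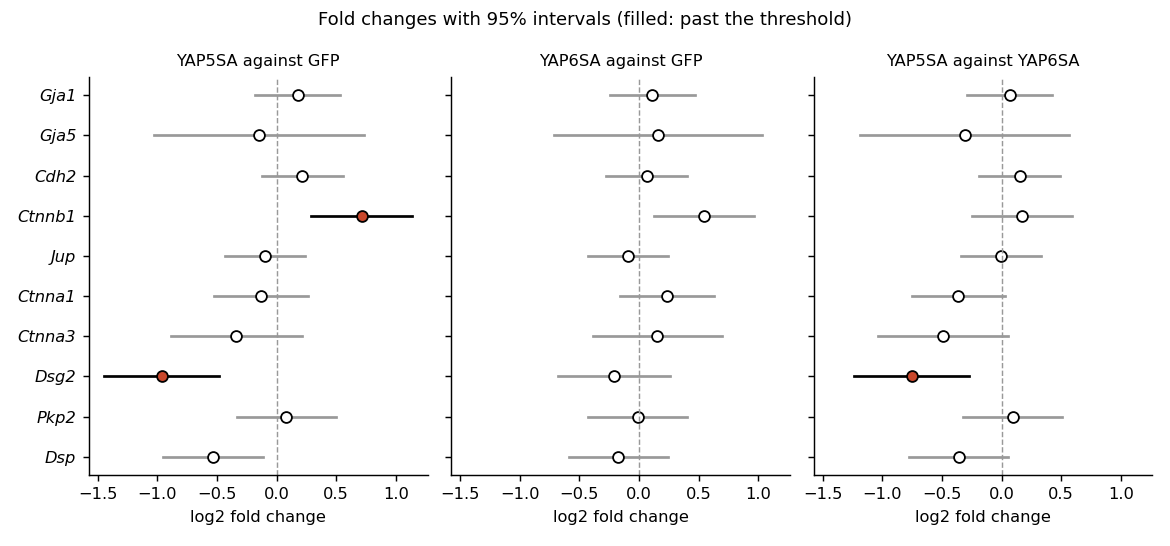
Log2 fold change of each gene in the 3 comparisons with its 95% interval from the edgeR fit (n = 2 libraries per group); filled points passed the threshold. In YAP5SA against GFP, Ctnnb1 lies at 0.71 and Dsg2 at -0.97, and in YAP6SA against GFP no point is filled.

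Gja1 encodes connexin 43, the main gap junction protein of working ventricular muscle (chromosome 10, 56377330 to 56402513, plus strand of GRCm38). Its CPM in batches 1 and 2 was 343 and 440.2 in GFP, 346 and 507 in YAP6SA OE CMs, and 381 and 507 in YAP5SA OE CMs. Every group was higher in batch 2, and the groups overlapped in each comparison. The log2 fold change of YAP5SA against GFP was 0.18 (SE 0.160, 95% interval -0.18 to 0.53, FDR 0.460) and that of YAP6SA against GFP was 0.11 (SE 0.160, 95% interval -0.25 to 0.47, FDR 0.947), neither past the threshold. The interval for YAP5SA reaches from a 0.883-fold to a 1.45-fold level of Gja1.

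Gja5 encodes connexin 40, the gap junction protein of atrial muscle, the ventricular conduction system and arterial endothelium (chromosome 3, 96904693 to 97077416, plus strand). Its counts were 68 and 60 in GFP, 93 and 60 in YAP6SA and 51 and 60 in YAP5SA, which is 3.57 and 3.92, 4.73 and 3.64, and 3.38 and 3.36 CPM. It was the lowest member in every group. At these counts the 95% interval of the YAP5SA log2 fold change against GFP (-0.15, SE 0.395, FDR 0.818) ran from -1.03 to 0.73. A fall or a rise of Gja5 inside that range therefore remains possible. Its exons share 165 bases with Gpr89, which had 2293 counts over the 6 libraries beside 392 of Gja5, and reads in those bases cannot be assigned without strand. The atrial CM markers did not move together: 4 of 10 (Myl4, Myl7, Nppa and Bmp10) were called higher in YAP5SA OE CMs, 6 had a positive and 4 a negative log2 fold change, down to -1.09 for Nr2f1 (FDR 0.0579), and DESeq2 called 1 lower. Their summed level was 765 to 769 CPM in YAP5SA against 473 to 554 in GFP. The conduction system markers summed to 148 to 250.2 CPM in YAP5SA and 141 to 182 in GFP, while 6 of the 8 tested had a negative log2 fold change (median -0.34), with 1 called higher (Tbx18, 1.30) and 1 lower (Irx3, -0.60). The arterial endothelial markers summed to 300 to 380 CPM in YAP5SA and 207 to 237 in GFP. Of these 10 markers, 1 was called higher and 0 lower, beside 12.8% and 9.18% of all tested genes. Their log2 fold changes were positive for 7 and negative for 3. The part of these cell types in the Gja5 level was not tested.

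Among the 18 other connexin genes fixed as a list, 12 had a count and 3 were tested. Of these, 0 rose and 1 fell in YAP5SA OE CMs by edgeR, DESeq2 and limma-voom alike, beside 12.8% and 9.18% of all tested genes by edgeR. At an unadjusted p under 0.05 in edgeR, 2 passed, beside 19.4% of all tested genes that were higher and 17.0% that were lower. Gja3, which encodes connexin 46, had 58.2 and 52.2 CPM in GFP, 42.1 and 41.95 in YAP6SA and 28.8 and 23.9 in YAP5SA. Its groups did not overlap in any comparison, and YAP5SA was lowest. It fell by 1.07 on the log2 scale against GFP (SE 0.167, FDR 0.00252), a call that was kept in each of the 9 alternative fits and with each library left out, and by 0.68 against YAP6SA (SE 0.167, FDR 0.0246). The second call was lost in the fit of those 4 libraries alone (FDR 0.0512, with 0.00657 as the lowest of the alternative fits) and without either YAP6SA library or YAP5SA replicate 2, with estimates from -0.78 to -0.57. Gja4, the endothelial connexin 37, had a log2 fold change of 0.69 (FDR 0.128), and Gjc1, connexin 45 of the early heart tube and the nodes, one of 0.05 (SE 0.148, FDR 0.837). Gjc1 was close to Gja1 in level per exon length. The ratio was 0.946 and 0.824 in GFP, 0.767 and 0.653 in YAP6SA and 0.807 and 0.812 in YAP5SA. This closeness depends on the length used, since most of the 10257 exon bases of Gja1 are not coding. As CPM, Gjc1 had 158 and 177 in GFP, where Gja1 had 343 and 440.2. The ratio of Gja5 to Gja1 per exon length was 0.0119 to 0.0245 over the 6 libraries.

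Cdh2 encodes N-cadherin, the classical cadherin of the cardiac adherens junction (chromosome 18, 16588877 to 16809246, minus strand). Its CPM was 79.3 and 92.1 in GFP, 94.8 and 83.9 in YAP6SA and 98.4 and 100.4 in YAP5SA. Both YAP5SA libraries were above the others, and the size was small: the log2 fold change against GFP was 0.22 with a 95% interval of -0.13 to 0.56 (SE 0.153, FDR 0.344). YAP6SA overlapped GFP, with a log2 fold change of 0.06 (SE 0.153, FDR 0.965).

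Ctnnb1 encodes beta-catenin, which binds the N-cadherin tail and is also the transcriptional effector of Wnt signalling (chromosome 9, 120929216 to 120960507, plus strand). It had 33.1 and 25.3 CPM in GFP, 44.0 and 41.0 in YAP6SA, and 44.0 and 51.3 in YAP5SA. Both YAP forms were above both GFP libraries and overlapped each other, with close levels in batch 1. Against GFP, Ctnnb1 rose 1.64-fold in YAP5SA OE CMs (log2 fold change 0.71, SE 0.190, 95% interval 0.29 to 1.14, FDR 0.0249), with differences of 0.41 in batch 1 and 1.02 in batch 2. In YAP6SA OE CMs the log2 fold change was 0.54 (SE 0.189, 95% interval 0.12 to 0.96), with an unadjusted p of 0.0168 and an FDR of 0.706, so that it was not called there, nor in the 9 alternative fits (FDR 0.0651 to 0.998). The difference between the YAP forms was 0.17 with a 95% interval of -0.25 to 0.59 (SE 0.187, FDR 0.581), and a difference of the YAP forms in Ctnnb1 is therefore not shown.

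The Ctnnb1 call against GFP was kept in each of the 9 alternative fits (FDR 0.00599 to 0.0406) and rests on batch 2: without GFP replicate 2 the log2 fold change was 0.49 (FDR 0.338), and without YAP5SA replicate 2 it was 0.49 (FDR 0.117). Of its exon bases, 759 (14.6%) are shared with Ulk4 on the other strand, which had 182 counts over the 6 libraries beside 4139 of Ctnnb1.

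Ctnna1 encodes alpha-E-catenin, the common actin-binding partner of beta-catenin (chromosome 18, 35118859 to 35254779, plus strand), and Ctnna3 encodes alpha-T-catenin, a form found in heart and testis that also binds plakophilin 2 (chromosome 10, 63430098 to 65003667, plus strand). Ctnna1 had 707 and 832 CPM in GFP, 924 and 879 in YAP6SA and 689 and 715 in YAP5SA. Ctnna3 had 13.2 and 12.5 CPM in GFP, 13.8 and 14.7 in YAP6SA and 11.3 and 9.08 in YAP5SA. Both genes were above GFP in both YAP6SA libraries and under YAP6SA in both YAP5SA libraries. None of these differences was past the threshold: YAP5SA against YAP6SA gave -0.36 for Ctnna1 (SE 0.176, FDR 0.195) and -0.49 for Ctnna3 (SE 0.245, FDR 0.207), and YAP5SA against GFP gave -0.13 (SE 0.176, FDR 0.633) and -0.34 (SE 0.245, FDR 0.354). Per exon length, Ctnna3 stood at 0.0113 to 0.0167 of Ctnna1 over the 6 libraries, with overlap of the groups.

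Jup encodes plakoglobin, a close relative of beta-catenin that links desmosomal cadherins to desmoplakin and can also bind N-cadherin (chromosome 11, 100368958 to 100397763, minus strand). It had 93.5 and 119.9 CPM in GFP, 87.0 and 113 in YAP6SA and 77.9 and 125 in YAP5SA. The groups overlapped, and in each the higher value was that of batch 2. The log2 fold change was -0.10 in YAP5SA (SE 0.151, 95% interval -0.43 to 0.24, FDR 0.680) and -0.09 in YAP6SA (SE 0.151, 95% interval -0.43 to 0.24, FDR 0.947).

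Set against Ctnnb1, Jup was 2.28 and 3.82 times as high per exon length in GFP, 1.59 and 2.22 times in YAP6SA and 1.43 and 1.96 times in YAP5SA. The YAP5SA libraries were under both GFP libraries, by 0.67 in batch 1 and 0.96 in batch 2 on the log2 scale, and so were the YAP6SA libraries, by 0.51 and 0.78. With 2 libraries against 2, the smallest p that an exact two-sided permutation test can give is 0.333, and this ratio is given as values with no test. The plot of ratios shows that the other pairs did not part in this way in both YAP forms, except Gjc1 to Gja1, whose log2 ratio was lower than in GFP by 0.13 in YAP5SA and by 0.32 in YAP6SA.

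**Figure D3:**
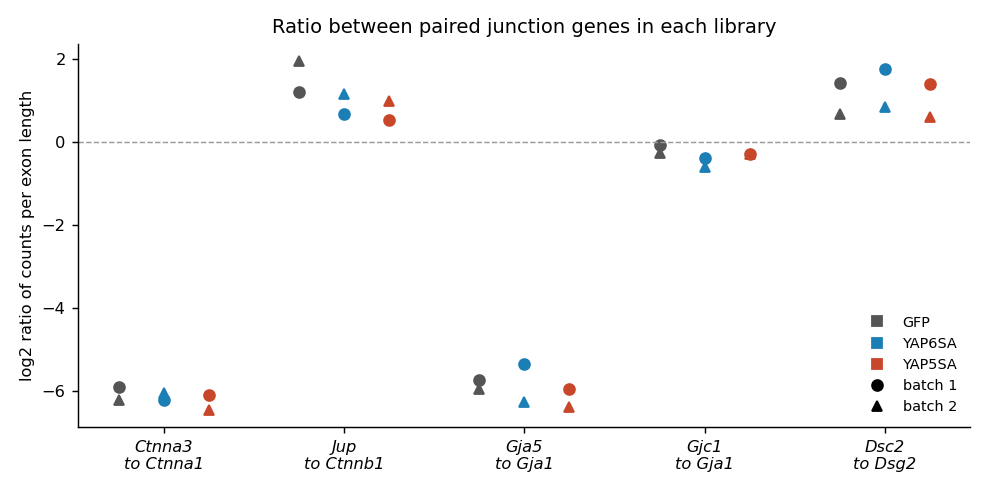
Log2 ratio of counts per exon length between the genes of 5 pairs in each library; colours are the groups and symbols the batches, and the dashed line is an equal level. Jup to Ctnnb1 is above 0 in every library and highest in GFP, and Ctnna3 and Gja5 lie far under their partners.

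Dsg2 encodes desmoglein 2, the main desmosomal cadherin of heart muscle (chromosome 18, 20558074 to 20604521, plus strand). It had 176 and 281 CPM in GFP, 133 and 271 in YAP6SA, and 110.4 and 114 in YAP5SA. GFP and YAP6SA differed widely between batches and overlapped, while both YAP5SA libraries were under all others. Dsg2 fell to 0.512-fold of GFP (log2 fold change -0.97, SE 0.215, 95% interval -1.44 to -0.49, FDR 0.0123), by 0.67 in batch 1 and 1.30 in batch 2. It fell by 0.75 on the log2 scale against YAP6SA (SE 0.215, 95% interval -1.23 to -0.28, FDR 0.0425), by 0.27 in batch 1 and by 1.25 in batch 2. YAP6SA against GFP gave -0.21 (SE 0.212, 95% interval -0.68 to 0.26, FDR 0.929).

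The direction of Dsg2 against GFP was the same in each of the 9 alternative fits and with each library left out, with log2 fold changes of -1.38 to -0.58. The call was lost without the batch term (FDR 0.0590, against 9.24e-07 to 0.0590 over the alternative fits) and without GFP replicate 2 (-0.90). The value moved furthest without a YAP5SA library, to -1.38 without replicate 1 and to -0.58 without replicate 2. The call against YAP6SA was lost without the batch term (FDR 0.130, against 3.78e-04 to 0.130 over the alternative fits), without YAP6SA replicate 2 (-0.42, FDR 0.524) and without YAP5SA replicate 2 (-0.35, FDR 0.252), and was larger without YAP5SA replicate 1 (-1.15, FDR 4.29e-05). Beside it, the summed level of the 10 CM markers was 31576 to 43124 CPM in YAP5SA, 49257 to 62844 in YAP6SA and 50814 to 67741 in GFP, and none was at 0. In YAP5SA against GFP, edgeR called 2 of them lower, Ryr2 (-0.81) and Pln (-1.04) on the log2 scale, and 0 higher. Of all tested genes, 9.18% were called lower and 12.8% higher. The log2 fold changes of the 10 markers were negative for 8 and positive for 2, with a median of -0.55. DESeq2 called 4 of these markers lower and limma-voom 5. The part of this shift in the Dsg2 result was not tested.

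Dsg2 lies in the cluster of 9 desmosomal cadherin genes on chromosome 18, of which Dsg2 and Dsc2, 498.5 kb apart, were the tested ones; the other 7 had 0 to 91 counts in all 6 libraries together. Dsc2, which encodes desmocollin 2, the partner of desmoglein 2, had 301 and 286 CPM in GFP, 287 and 308 in YAP6SA and 184 and 111 in YAP5SA. As for Dsg2, both YAP5SA libraries were lowest, but GFP and YAP6SA differed little between batches. Dsc2 fell by 1.02 on the log2 scale against GFP (SE 0.206, FDR 0.00791) and by 1.05 against YAP6SA (SE 0.206, FDR 0.00992); without GFP replicate 2 the first was -0.90 and not called (FDR 0.0691), and without YAP6SA replicate 2 the second was -0.80 and not called (FDR 0.161). Without YAP5SA replicate 2 both were called, with -0.65 (FDR 0.0115) and -0.67 (FDR 0.0138). The log2 ratio of Dsc2 to Dsg2 differed between YAP5SA and GFP by -0.05, with overlap of the groups.

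Pkp2 encodes plakophilin 2, the armadillo protein that holds desmoplakin at the plaque (chromosome 16, 16213318 to 16272712, plus strand). It had 723 and 829.7 CPM in GFP, 674 and 870.5 in YAP6SA, and 851 and 781 in YAP5SA, and the groups overlapped throughout. Its log2 fold change was 0.08 in YAP5SA (SE 0.187, 95% interval -0.34 to 0.50, FDR 0.790) and -0.01 in YAP6SA (SE 0.186, FDR 0.998).

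Dsp encodes desmoplakin, which joins the desmosome to desmin (chromosome 13, 38151294 to 38198577, plus strand). It had 251 and 368 CPM in GFP, 224 and 324 in YAP6SA, and 213 and 204 in YAP5SA. Both YAP5SA libraries were under all others, with a wide gap in batch 2 and a narrow one in batch 1. The log2 fold change against GFP was -0.53 (SE 0.186, 95% interval -0.95 to -0.12) with an unadjusted p of 0.0169 and an FDR of 0.0666, so that Dsp was not called; within batches it was -0.24 and -0.85. It was called with no filter on low counts and by the likelihood ratio test, and its FDR over the 9 alternative fits was 0.0171 to 0.138. With a library left out it ran from -0.84 without YAP5SA replicate 1, where it was called (FDR 4.77e-04), to -0.38 without GFP replicate 2 (FDR 0.463) and -0.23 without YAP5SA replicate 2 (FDR 0.401). Against YAP6SA, Dsp was at -0.36 (SE 0.186, FDR 0.221), and it was called without YAP5SA replicate 1 (-0.66, FDR 0.00398) and stood at -0.05 without YAP5SA replicate 2. The values of these desmosome and catenin genes by batch are plotted together.

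**Figure D4:**
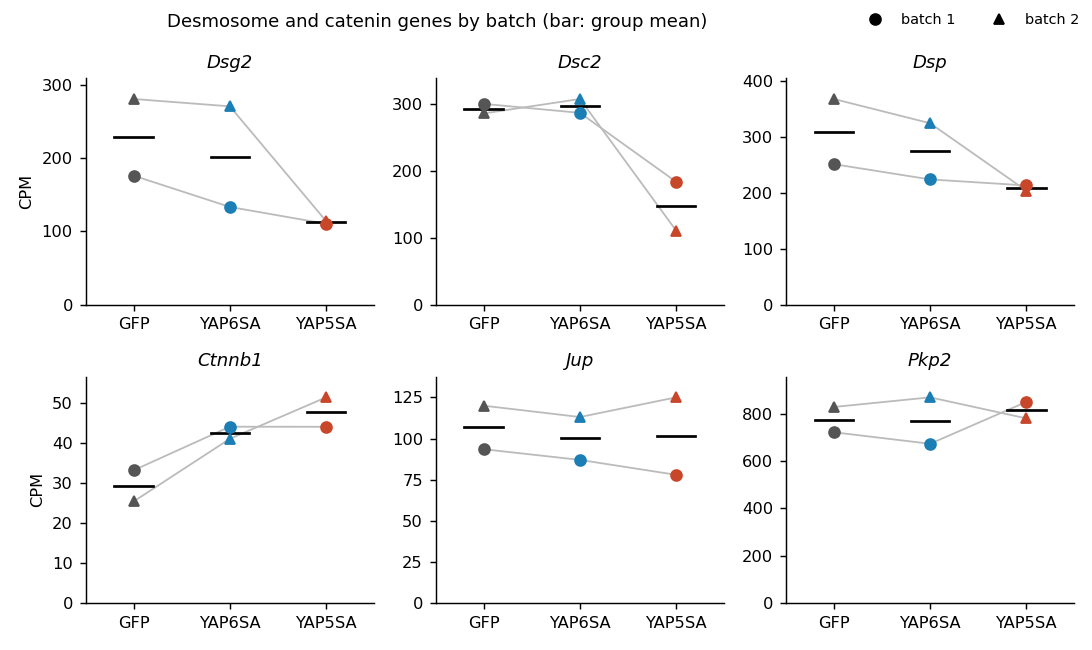
CPM of 6 desmosome and catenin genes in each library, from 0; points are libraries, grey lines join libraries of 1 batch and black bars are group means (n = 2). Dsg2, Dsc2 and Dsp are lowest in YAP5SA in both batches, Ctnnb1 is lowest in GFP, and Jup and Pkp2 overlap between the groups.

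In the model, 7 of the 10 genes had a positive difference of batch 2 from batch 1, beside 50.2% of all tested genes. On the log2 scale, 4 of the 10 genes were higher in batch 2 by over 0.3, Dsg2 by 0.58, Jup by 0.47, Gja1 by 0.44 and Dsp by 0.34. Each of these had an unadjusted p under 0.05 for batch in edgeR. The share of all tested genes past these 2 cutoffs was not counted, so the 4 genes are given as values only. By edgeR none of the 10 genes was called for batch, where 0.203% of all tested genes were called. The FDR was 0.162 to 0.409 for the 4 genes, and no other tool was run for this term.

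Beyond the 10 genes, 4 wider lists of junction genes held 71 genes, of which 41 were tested. In YAP5SA against GFP, 7 rose, 6 fell and 28 were not called, where 12.8% of all tested genes rose and 9.18% fell, and their median was 0.04 on the log2 scale. The 7 include Cdh3, which was kept for the tests only through its level in YAP5SA. In YAP6SA against GFP, none was called by edgeR, DESeq2 or limma-voom, where edgeR called 0.045% of all tested genes. At an unadjusted p under 0.05 in edgeR, 7 passed, beside 3.86% of all tested genes that were higher and 2.07% that were lower. Between the YAP forms, 5 were higher and 5 lower in YAP5SA, beside 9.0% and 5.68% of all tested genes. These shares of called genes are the background of each list below. Changes of list genes below are on the log2 scale.

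Of 5 tested other desmosome genes, 1 rose and 1 (Dsc2) fell in YAP5SA OE CMs. Pkp4, a plakophilin relative of cell borders, rose by 0.56 (SE 0.163, FDR 0.0348), though its groups overlapped, with 88.2 and 140.1 CPM in GFP and 138 and 196 in YAP5SA. That call was lost without the batch term (FDR 0.156, with 0.0122 as the lowest of the alternative fits) and without either GFP library or YAP5SA replicate 2, with estimates from 0.41 to 0.74. Perp, a desmosomal membrane protein, and Des, the desmin filament gene, had log2 fold changes of 0.07 (FDR 0.840) and -0.06 (FDR 0.846).

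Of 13 tested other adherens junction genes, 3 rose and 1 fell. Of those that rose, Cdh3 was kept for the tests only through its level in YAP5SA, so its rise is not separate from the filter. Plekha7, which joins the cadherin complex to microtubules, had 45.0 and 87.4 CPM in GFP, 49.5 and 66.6 in YAP6SA, and 176 and 331 in YAP5SA. It rose by 1.94 against GFP (SE 0.173, FDR 2.04e-04) and by 2.07 against YAP6SA (SE 0.174, FDR 2.17e-04), and both calls were kept in each alternative fit and with each library left out. Nectin3, an immunoglobulin-type adhesion receptor of adherens junctions, had 13.5 and 14.6 CPM in GFP, 15.8 and 18.6 in YAP6SA, and 28.5 and 47.9 in YAP5SA. It rose by 1.41 against GFP (SE 0.226, FDR 0.00282) and by 1.12 against YAP6SA (SE 0.223, FDR 0.0103), the second not called without YAP6SA replicate 2.

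Cdh3, the gene of P-cadherin, was close to the detection limit at 1.31 and 0.522 CPM in GFP and 2.85 and 3.59 in YAP5SA, and its rise of 1.86 (SE 0.566, FDR 0.0415) was lost without the batch term, in DESeq2 and when any of 4 libraries was left out (GFP replicate 1 or 2, YAP6SA replicate 1 or YAP5SA replicate 2), with estimates from 1.28 to 2.60. Ctnnal1, the gene of the alpha-catenin-like protein alpha-catulin, fell by 0.88 against GFP (SE 0.262, FDR 0.0379), a call lost without the batch term (FDR 0.0903, with 6.4e-06 as the lowest of the alternative fits) and without GFP replicate 2 (-0.31) or YAP5SA replicate 2 (-0.80), and it was -1.34 without GFP replicate 1. Beside the adherens junction genes that rose, the summed level of the 8 epicardial markers was at least 137 CPM in both YAP5SA libraries, 37.7 to 68.4 in YAP6SA and 34.6 to 43.4 in GFP, with Wt1, Krt18 and Krt19 called higher in YAP5SA against GFP and no marker at 0. The part of epicardial RNA in these results was not tested.

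Of 20 tested other disc-associated genes, 3 rose and 3 fell. Xirp2, an actin-binding protein of the disc, had 182 and 188 CPM in GFP, 141 and 150.0 in YAP6SA, and 94.6 and 84.7 in YAP5SA. It fell by 1.05 against GFP (SE 0.149, FDR 0.00162) and by 0.70 against YAP6SA (SE 0.148, FDR 0.0135); the first call was kept in all alternative fits and with each library left out, and the second was lost without either YAP6SA library. Tmem65, a membrane protein of the disc that binds connexin 43, fell by 0.89 (SE 0.159, FDR 0.00473) and was not called without GFP replicate 1. Cav3, the muscle caveolin, rose by 0.98 (SE 0.184, FDR 0.00598) from 61.1 and 74.4 CPM in GFP to 113 and 155 in YAP5SA. Tln2 was also called higher and Itgb1bp2 lower on this list, and both were named after their values were seen. The plot of the lists shows these genes around the 10 members.

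**Figure D5:**
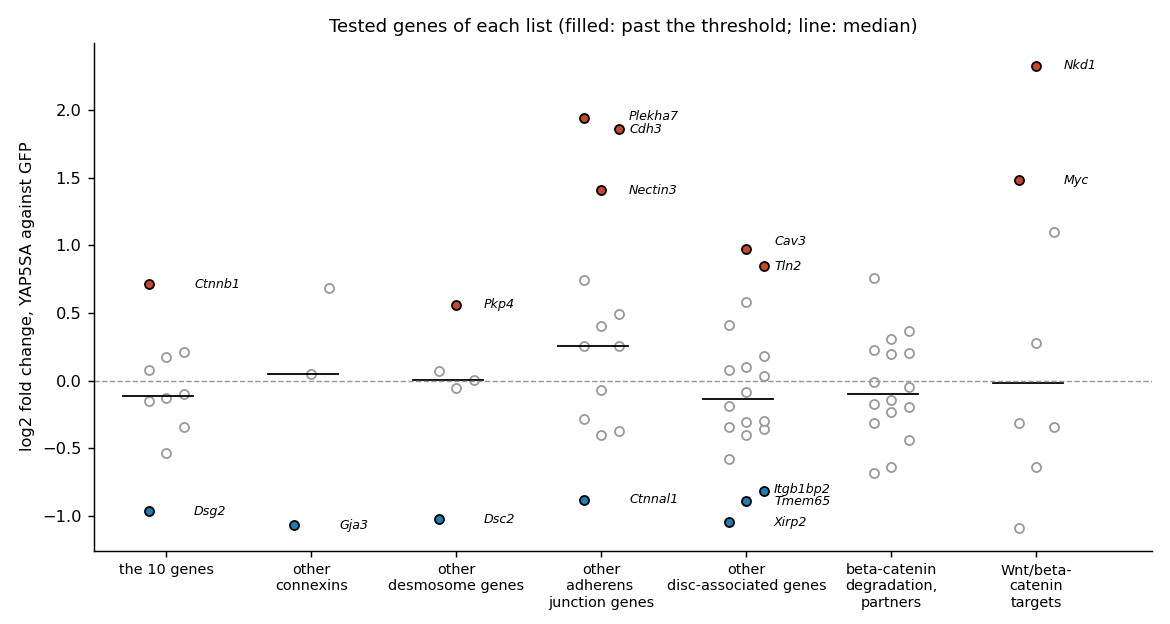
Log2 fold change of YAP5SA against GFP for tested genes of each list; filled points passed the threshold (red higher, blue lower) and are named, and lines are medians over all tested genes of the list. The 10 genes have a median of -0.11, with Ctnnb1 above and Dsg2 below the rest, and Plekha7 stands highest among the other adherens junction genes.

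The genes whose log2 CPM followed Gja1 most closely over the 6 libraries, among 9876 genes of sufficient level, were Gm47283 (r = 0.987), Tfb2m (r = 0.986) and Topors (r = 0.980). For Gja5 they were Herc4 (r = 0.978), Ppargc1a (r = 0.971) and Hspbp1 (r = 0.970), and for the mean profile of the 10 genes Dctn2 (r = 0.988), Ndufs5 (r = 0.987) and Cpsf1 (r = 0.987). These are descriptions over 6 libraries that share batches and groups, picked as the highest of many.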

How the data were processed

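Poly-A, non-directional nuclear RNA libraries were mapped by the authors with STAR to mm10 (Ensembl GRCm38.94); the version is not given in the sources used here. The authors deposited raw read counts per gene, 1 column per library, with no normalization. The 4 rows that are not genes (unmapped, multimapping, no feature, ambiguous) were left out; ambiguous reads were 5.79% to 6.31% and reads outside genes 9.43% to 9.84% of a library. Depth was 14552847 to 19615627 gene counts.

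Names, coordinates and exon lengths came from GENCODE M21 (GRCm38). Genes with a median log2 CPM over 1 in at least 1 group were kept (13323). The model used edgeR 4.0.16 in R 4.3.3 (TMM, quasi-likelihood F-test, all 6 libraries, terms for batch and group), with Benjamini-Hochberg adjustment over all tested genes at 0.05; 95% intervals used the moderated residual degrees of freedom. The replicate number in the labels is the batch number, so the batch term pairs libraries. The correlation of the deviations from the group mean between libraries of 1 batch, across genes, was 0.368 (GFP, YAP6SA), 0.0985 (GFP, YAP5SA) and 0.175 (YAP6SA, YAP5SA). Ratios used counts plus 0.5.

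Alternatives were RLE and upper quartile scaling, no filter, at least 10 counts in every library, the likelihood ratio test, no batch term, 4-library fits, limma-voom (limma 3.58.1), DESeq2 1.42.0, thresholds of 0.01 and 0.1, and each library left out. The main edgeR fit was tested on simulated counts that held no batch difference, and the alternatives were not tested in this way. The members and lists were chosen with earlier results of these data known. Named genes are the 10 members, the 4 lowest p of each wider list in YAP5SA against GFP, list genes called in YAP6SA against GFP, genes of the ratios, the 3 most similar profiles, and marker genes of lists that move with a member; 1 gene of the disc-associated list is counted but not reported here.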

Additional observations from a re-analysis of the deposited data

How the results depend on the processing

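In YAP5SA against GFP, the count of the 10 genes called higher (1) was 0 at a threshold of 0.01, and that called lower (1) was 2 with no filter, by the likelihood ratio test and at a threshold of 0.1, and 0 at 0.01. In the fit with no replicate block, the batch pairing left out, the count of genes called lower was 0 against GFP and 0 against YAP6SA, where it was also 0 at a threshold of 0.01. On the wider lists, the count higher in YAP5SA against GFP (7) was 11 with no filter, and that in YAP6SA against GFP (0) was 2 in the 4-library fit, Des (0.47, FDR 0.0486) and Popdc2 (0.54, FDR 0.0196), whose FDR reached 0.998 in other fits. In YAP5SA against YAP6SA, the counts higher and lower on these lists (5 and 5) were 9 and 8 with no filter, 2 and 3 with no replicate block, 2 and 1 at 0.01, and 8 and 10 at 0.1. With each library left out, which leaves 1 residual degree of freedom and assumes that the lone library varies like the other groups, the counts of the 10 genes against GFP ran from 0 to 1 higher and from 0 to 2 lower, and against YAP6SA from 0 to 2 lower. Those of the wider lists ran from 4 to 11 higher and 3 to 8 lower against GFP, from 1 to 9 higher and 0 to 12 lower against YAP6SA, and from 0 to 1 higher in YAP6SA against GFP.

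Directions turned for genes that were not called. Jup, YAP5SA against YAP6SA (-0.003), was 0.0023 with no filter, 0.0044 with at least 10 counts in every library, 0.0065 in the 4-library fit and 0.022 with no replicate block, and -0.15 to 0.16 with a library left out. With a library left out, YAP5SA against GFP ran from -0.30 to 0.017 for Gja5, -0.24 to 0.065 for Jup, -0.12 to 0.29 for Pkp2, -0.053 to 0.17 for Gjc1, -0.27 to 0.45 for Perp and -0.21 to 0.12 for Des. YAP6SA against GFP ran from -0.073 to 0.37 for Gja5, -0.089 to 0.21 for Cdh2, -0.57 to 0.095 for Dsg2 and -0.18 to 0.15 for Pkp2, and YAP5SA against YAP6SA from -0.014 to 0.15 for Gja1, -0.056 to 0.40 for Ctnnb1 and -0.10 to 0.31 for Pkp2. The causes were not tested. The counts of Gja5, 51 to 93 per library, limit what can be seen of it.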

Other observations

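Among 17 genes of beta-catenin degradation and its partners, 16 were tested. In YAP5SA against GFP, 0 were called by edgeR, DESeq2 or limma-voom, where edgeR called 22.0% of all tested genes. At an unadjusted p under 0.05 in edgeR, 5 passed, beside 19.4% of all tested genes that were higher and 17.0% that were lower. Bcl9l, a coactivator of beta-catenin, had the lowest p, with a log2 fold change of -0.44 (SE 0.155, FDR 0.0688) from 70.9 and 65.0 CPM in GFP to 48.0 and 52.1 in YAP5SA. Apc2, a relative of the scaffold Apc, had -0.68 (SE 0.272, FDR 0.0999), Pygo2, a partner of Bcl9 proteins, 0.37 (SE 0.151, FDR 0.108), and Tcf7l1, a repressive TCF factor, 0.76 (SE 0.318, FDR 0.116). With a library left out, Apc2 ran from -1.13 without YAP5SA replicate 1 (FDR 0.00308) to -0.34 without GFP replicate 2 (FDR 0.649) and -0.26 without YAP5SA replicate 2 (FDR 0.560). Tcf7l1 ran from 1.22 without YAP5SA replicate 1 (FDR 0.00499) to 0.24 without YAP5SA replicate 2 (FDR 0.708). Bcl9l ran from -0.56 to -0.30 and was called without YAP5SA replicate 2 (FDR 0.0392), and Pygo2 ran from 0.30 to 0.45 and was called without YAP5SA replicate 1 (FDR 0.0449). Of the 14 genes listed as targets of Wnt and beta-catenin, 8 were tested. By edgeR, 2 rose and 0 fell in YAP5SA OE CMs, beside 12.8% of all tested genes that rose and 9.18% that fell. Of those that rose, Nkd1 was low in GFP and YAP6SA and was kept for the tests only through its level in YAP5SA. Its rise is therefore not separate from the filter and is no support for a change of the list. At an unadjusted p under 0.05, 5 of these targets passed in either direction, beside 19.4% of all tested genes that were higher and 17.0% that were lower. Some of these targets, Axin2 included, are also on the list of degradation and partners above, so the counts of these lists are not of separate genes. Nkd1, a feedback inhibitor of Wnt signalling, had 1.37 and 1.37 CPM in GFP, 1.68 and 1.15 in YAP6SA and 4.64 and 9.53 in YAP5SA, a log2 fold change of 2.33 against GFP (SE 0.502, FDR 0.0108). Myc, which other pathways also control, had 20.8 and 15.3 CPM in GFP, 13.5 and 18.8 in YAP6SA and 30.1 and 81.7 in YAP5SA, a log2 fold change of 1.48 (SE 0.359, FDR 0.0172). Neither was called without GFP replicate 2 or without YAP5SA replicate 2, with estimates over all libraries left out from 1.64 to 2.94 for Nkd1 and from 0.76 to 2.21 for Myc; Myc was 0.79 without GFP replicate 2 and 0.76 without YAP5SA replicate 2. Axin2, a common reporter of Wnt signalling, was not called and had a negative estimate (-0.64, SE 0.273, FDR 0.121), as had Lgr6 (-1.08, SE 0.406, FDR 0.0824), which DESeq2 and limma-voom called lower (FDR 2.27e-04 to 0.0868 over the alternative fits) and which ran from -2.08 without YAP5SA replicate 1 (FDR 5.44e-06) to -0.54 without GFP replicate 2 (FDR 0.542) and -0.23 without YAP5SA replicate 2 (FDR 0.601).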
